A study of Mus musculus with 4 samples.

Results

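The transcription factors of the epithelial to mesenchymal transition (EMT) examined here were 10 named genes, Zeb1, Zeb2, Snai1, Snai2, Twist1, Twist2, Prrx1, Sox4, Sox9 and Foxc2. They were chosen by name, and all 10 were found among the 21090 genes of a table of RNA sequencing (RNA-seq) values from 4 mouse mammary tumor cell lines. The lines came from a mammary tumor with lung metastasis, and by the study's account all 4 carry Pik3ca H1047R and Trp53 R270H, with Cre under the MMTV promoter. Controls were parental cells and cells with a vector control (n = 2). Knockouts were S100a4 exon 3 and S100a4 exon 2 lines (n = 2), each made by lentiviral delivery of Cas9 and 1 guide RNA. Each line gave 1 library, so the 2 members of a group are different lines rather than repeats of 1 line. The sources used here do not say whether an edited line is 1 clone. The titles give the cell number 307 for 3 of the lines but 308 for the exon 2 knockout, so that number and the exon cannot be told apart.

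EMT is the process in which epithelial cells lose adhesion to their neighbours and gain the motility and matrix production of mesenchymal cells. Zinc finger factors (Zeb and Snail), basic helix-loop-helix factors (Twist), and homeobox, Sox and forkhead factors drive it. Zeb and Snail proteins repress epithelial genes such as Cdh1, the gene for E-cadherin, by binding E-box motifs, and they recruit corepressor complexes. In breast tumors these factors are known for their part in invasion, stem cell traits and spindle cell morphology.

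The authors deposited RPKM, a read number divided by the length of the gene and by the total of the library. RPKM is scaled by length, which allows a rough comparison between genes. It is not corrected for GC content, and the length used is not given in the sources used here. The whole reads behind each value were recovered from the table, and 15405 of 15405 genes above 0 came out whole within 0.001 reads. Reads in genes numbered between 14592504 and 20367417 per library, with the controls deeper than the knockouts. Each member rested on 125 to 2237 reads in a library. S100a4, the edited gene, was at 3576 RPKM in parental and 4741 in vector control cells, against 1136 in exon 3 and 1105 in exon 2 knockout cells, so both knockouts lay below both controls and transcript remained in each. The RNA level does not measure loss of the protein. For that the study reports truncating mutations in most S100a4 transcripts of the knockouts, and loss of the protein by Western blot.

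The label of the cells was checked against marker genes. Cdh1, the defining epithelial cadherin, was close to absent in all 4 libraries, at 0.117 to 0.252 RPKM on 7 to 17 reads. Epcam, an epithelial adhesion gene, was at 0.304 RPKM in parental and 0.374 in vector control cells, on 9 reads each. It was at 0.629 in exon 3 and 0.657 in exon 2 knockout cells, on 14 reads each. The study reports Epcam as higher in the knockouts than in the parental line. With so few reads it was below the filter and was not tested here. Krt8, a keratin of simple epithelia, was at 69.0 RPKM in parental and 27.5 in vector control cells, against 78.9 in exon 3 and 54.8 in exon 2 knockout cells. Vim, the mesenchymal intermediate filament gene, was at 1362 to 2418 RPKM. The other listed markers were mixed. Krt18 was at 6.10 to 60.2 RPKM, but Krt19 at 0.0650 to 0.147. The claudin genes Cldn3, Cldn4 and Cldn7, also listed as epithelial, were at 0 to 0.239 RPKM on 0 to 4 reads. Fn1 was at 163.9 to 605.8 RPKM, Sparc at 577.1 to 1239 and Cdh2 at 15.7 to 49.4. Col1a1 ran from 6.93 to 670.3, and Cdh11, a mesenchymal cadherin, was at 0.0372 to 0.254. The lines labelled as mammary tumor cells therefore held transcripts of some, not all, listed keratin and mesenchymal genes, with very low levels of E-cadherin transcript. Of 7 leukocyte markers 2, Cd3e and Adgre1, were listed at 0 in all libraries, and Ptprc, the defining leukocyte gene, was at 0.0101 RPKM or less. The summed RPKM of the leukocyte list was 4.03 to 5.51 in the controls and 11.9 to 13.2 in the knockouts, most of it Cd68, a lysosomal gene of macrophages that other cells also express. The 4 endothelial markers summed to 0.186 to 0.443 RPKM over the libraries.

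All 10 factors were transcribed in every library. They lay between the 57.2 and the 93.7 percentile of all 21090 genes in the table. Only 13469 to 14214 of these were above 0 in a library, so the genes at 0 raise the percentiles. At the lowest of them, Zeb2 ranked 9036 among the 13780 genes above 0 in the exon 3 knockout. Ordered by mean RPKM over the 4 libraries, Twist1 was the most abundant at 54.1, followed by Sox9 at 39.9, Snai1 at 37.1, Sox4 at 30.0, Prrx1 at 27.9, Twist2 at 25.6, Snai2 at 19.6, Zeb1 at 15.7, Zeb2 at 7.25 and Foxc2 at 5.50. The ranges over the libraries overlapped for 9 of 9 neighbouring pairs in this order, so neighbours were not separated. Within libraries, Snai2 was above Zeb1 and Zeb1 above Zeb2 in 4 of 4. The place of some factors in the order differed between the groups. Prrx1 ranked 2 in parental and 5 in vector control cells, but 7 and 8 in the exon 3 and exon 2 knockouts. Snai1 ranked 5 and 6 in these controls, but 1 and 2 in these knockouts. The RPKM of the 10 factors summed to 329.8 in parental and 304.4 in vector control cells, against 208.9 in exon 3 and 207.0 in exon 2 knockout cells.

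**Figure D1:**
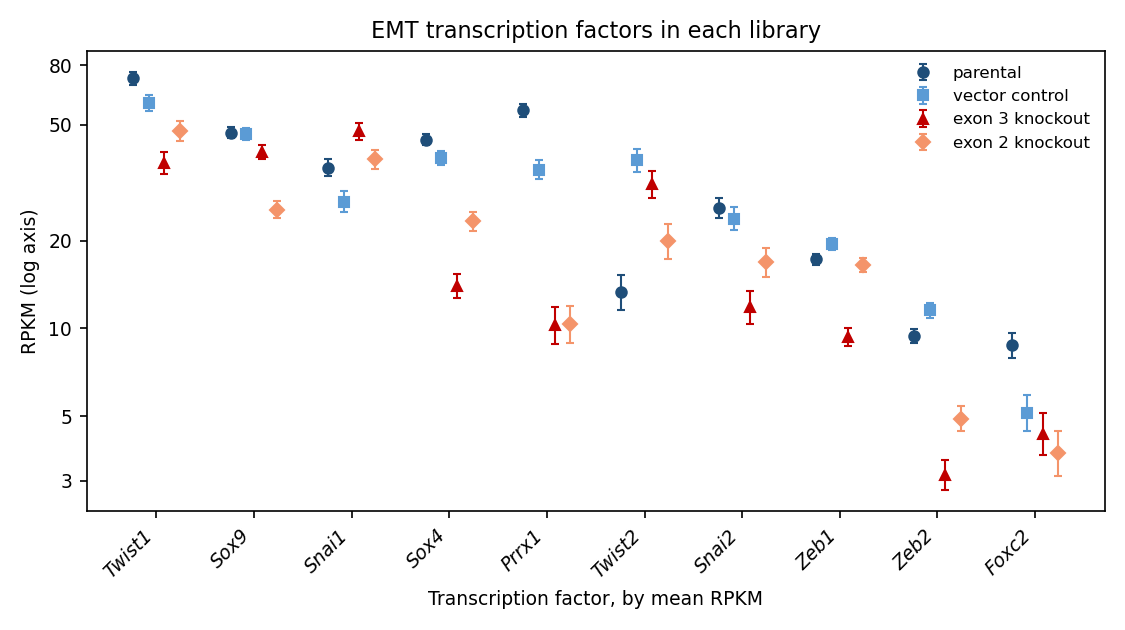
RPKM (log axis) of the 10 EMT transcription factors in each of the 4 libraries, with 1 point per library and exact Poisson 95% intervals that cover counting error only. Both knockouts lie below both controls for 8 factors, above both for Snai1, and among the controls for Twist2.

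The comparison the study was designed for is that of the S100a4 knockouts with the controls. S100a4 is a small calcium-binding protein known for its part in cell motility and metastasis. In this comparison 8 of the 10 factors were lower in both knockouts than in both controls (Zeb1, Zeb2, Snai2, Twist1, Prrx1, Sox4, Sox9 and Foxc2), where 31.2% of all 10871 tested genes were. Snai1 alone of the 10 was higher in both knockouts, as were 21.9% of tested genes, and the groups overlapped for Twist2. Prrx1 differed the most, at 22.6% of the control mean. The median log2 difference of the 10 factors was -0.62, beside -0.08 over all tested genes. In bulk RNA, fewer cells that express a factor and less of its RNA per cell cannot be told apart.

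The test across all genes was limma on log2(RPKM + 1), and p-values were adjusted by Benjamini and Hochberg with calls made under 0.05. It called 0.0184% of tested genes (2 genes), and 0 of the 10 factors passed. At an unadjusted p under 0.05, 4 factors were lower (Zeb2, Snai2, Prrx1 and Sox4) beside 13.8% of tested genes, and 0 were higher beside 5.32%. All genes together gave 2076 at that level. A log2 difference on this scale understates the difference of genes at low RPKM, and the standard error (SE) is limma's moderated one. With 2 lines against 2, an exact permutation test of 1 gene cannot give a p below 0.333. The study itself names Zeb2 and Sox4 as lower in these libraries, so their direction here is no independent evidence.

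Prrx1, a homeobox factor of mesenchymal cells and limb and craniofacial mesoderm, lies on chromosome 1 from 163245119 to 163313710 on the minus strand (GRCm38, GENCODE M21). Prrx1 RPKM was 56.0 in parental and 35.1 in vector control cells, against 10.3 in exon 3 and 10.3 in exon 2 knockout cells. The groups did not overlap, and the knockouts were nearly equal while the controls were not. The control mean was 45.6 ± 14.8 (SD, n = 2) and the knockout mean 10.3 ± 0.0473 (SD, n = 2), a 4.42-fold difference. The log2 difference was -2.00 (SE 0.332, limma adjusted p = 0.0731), with a 95% interval of -2.73 to -1.28. Prrx1 was the 1 factor at least 2-fold lower in all 4 knockout and control pairs, as were 1.73% of tested genes, and 0 factors were at least 2-fold higher in all 4 beside 0.267%. In limma its call depended on which library was left out. Without the vector control the adjusted p was 1.17e-05 and without the parental line 0.00411, where, beside limma's prior, the spread comes from the 2 nearly equal knockouts alone. Without the exon 3 knockout the adjusted p was 0.307 and without the exon 2 knockout 0.190.

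The Zeb genes encode large repressors with zinc fingers at both ends and a homeodomain between them. Zeb2 lies on chromosome 2 from 44983632 to 45117395 on the minus strand. Zeb2 RPKM was 9.42 in parental and 11.5 in vector control cells, against 3.14 in exon 3 and 4.91 in exon 2 knockout cells. The knockouts were at 38.4% of the control mean with no overlap. For Zeb2 the log2 difference was -1.21 (SE 0.350, limma adjusted p = 0.138), and -0.76 after a correction for GC content and length. Zeb1 RPKM was 17.2 in parental and 19.5 in vector control cells, against 9.35 in exon 3 and 16.5 in exon 2 knockout cells. Only the exon 3 knockout stood well below the controls, and the counting interval of the exon 2 knockout overlapped that of the parental line. The log2 difference of Zeb1 was -0.52 (SE 0.348, limma adjusted p = 0.425, 95% interval -1.29 to 0.24).

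The Snail genes encode short zinc finger repressors that bind the same E-boxes. Snai1, on chromosome 2 from 167538195 to 167542814 on the plus strand, is often the first of these factors to be induced in EMT. Its RPKM was 35.6 in parental and 27.2 in vector control cells, against 47.4 in exon 3 and 38.1 in exon 2 knockout cells. The groups did not overlap, but the exon 2 knockout lay within counting error of the parental line. For Snai1 the log2 difference was 0.44 (SE 0.311, limma adjusted p = 0.454, 95% interval -0.25 to 1.12). Snai2, also called Slug, is a factor of basal mammary cells and neural crest. Snai2 RPKM was 25.9 in parental and 23.8 in vector control cells, against 11.8 in exon 3 and 16.9 in exon 2 knockout cells. Both knockouts were lower than the closely spaced controls, with a log2 difference of -0.77 (SE 0.321, limma adjusted p = 0.230).

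Twist1 and Twist2 are basic helix-loop-helix factors that bind E-boxes as dimers with E proteins. Twist1 RPKM was 72.1 in parental and 59.5 in vector control cells, against 37.0 in exon 3 and 47.7 in exon 2 knockout cells. Both controls were above both knockouts, which were at 64.4% of the control mean. For Twist1 the log2 difference was -0.63 (SE 0.306, limma adjusted p = 0.288). Twist2 RPKM was 13.3 in parental and 37.7 in vector control cells, against 31.2 in exon 3 and 19.9 in exon 2 knockout cells. The controls were the lowest and the highest of the 4 Twist2 values, and both knockouts lay between them. Twist2 was the 1 factor at least 2-fold apart between the 2 control lines, as were 8.53% of tested genes. Its log2 difference between knockouts and controls was 0.14 (SE 0.445, limma adjusted p = 0.886), and the 95% interval of -0.84 to 1.12 leaves room for close to 2-fold in either direction.

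Sox4 and Sox9 carry an HMG box, a DNA-bending domain. Sox4, which acts downstream of TGF-beta in EMT, is a gene with 1 exon on chromosome 13 from 28948919 to 28953713 on the minus strand. Sox4 RPKM was 44.5 in parental and 38.3 in vector control cells, against 14.0 in exon 3 and 23.3 in exon 2 knockout cells. The knockouts were at 45.1% of the control mean with no overlap. The log2 difference of Sox4 was -1.15 (SE 0.335, limma adjusted p = 0.138). Left out in turn, the vector control gave a limma adjusted p of 0.0481, the parental line 0.0970, the exon 2 knockout 0.190 and the exon 3 knockout 0.648 with a log2 difference of -0.80. Sox9, a factor of mammary stem and luminal progenitor cells, was at 47.0 RPKM in parental and 46.5 in vector control cells, against 40.3 in exon 3 and 25.6 in exon 2 knockout cells. Here the exon 2 knockout was the lower of the pair, unlike for Sox4. The log2 difference of Sox9 was -0.53 (SE 0.323, limma adjusted p = 0.384).

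Foxc2, a forkhead factor of mesoderm and lymphatic vessels linked to metastasis in breast cancer, was the least abundant factor. Foxc2 RPKM was 8.75 in parental and 5.14 in vector control cells, against 4.36 in exon 3 and 3.75 in exon 2 knockout cells. The vector control lay closer to the knockouts than to the parental line, and the counting intervals of the vector control and the exon 3 knockout overlapped. For Foxc2 the log2 difference was -0.62 (SE 0.364, limma adjusted p = 0.367). Across the 10 factors, the counting intervals of both knockouts were below those of both controls for 6 (Zeb2, Snai2, Twist1, Prrx1, Sox4 and Sox9), as for 18.9% of tested genes. For 0 factors both were above, as for 12.4% of tested genes, and 4 factors had overlapping intervals in some pair.

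The 4 pairs of 1 knockout and 1 control share lines, so they are not independent, and their values are given side by side. The median log2 difference of the 10 factors was -0.90 for exon 3 knockout over parental cells and -0.81 over vector control cells. For the exon 2 knockout it was -0.71 over parental and -0.58 over vector control cells. Over all tested genes these medians were -0.05, -0.14, -0.02 and -0.13. For vector control against parental cells the median of the factors was -0.16, beside 0.16 for all tested genes. Between the exon 2 and the exon 3 knockout it was 0.18, and 0 factors were at least 2-fold apart there beside 4.99% of tested genes. Zeb1 (0.76) and Sox4 (0.70) were the factors furthest above the exon 3 knockout in the exon 2 knockout, and Sox9 (-0.64) and Twist2 (-0.62) the furthest below, as log2 differences.

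**Figure D2:**
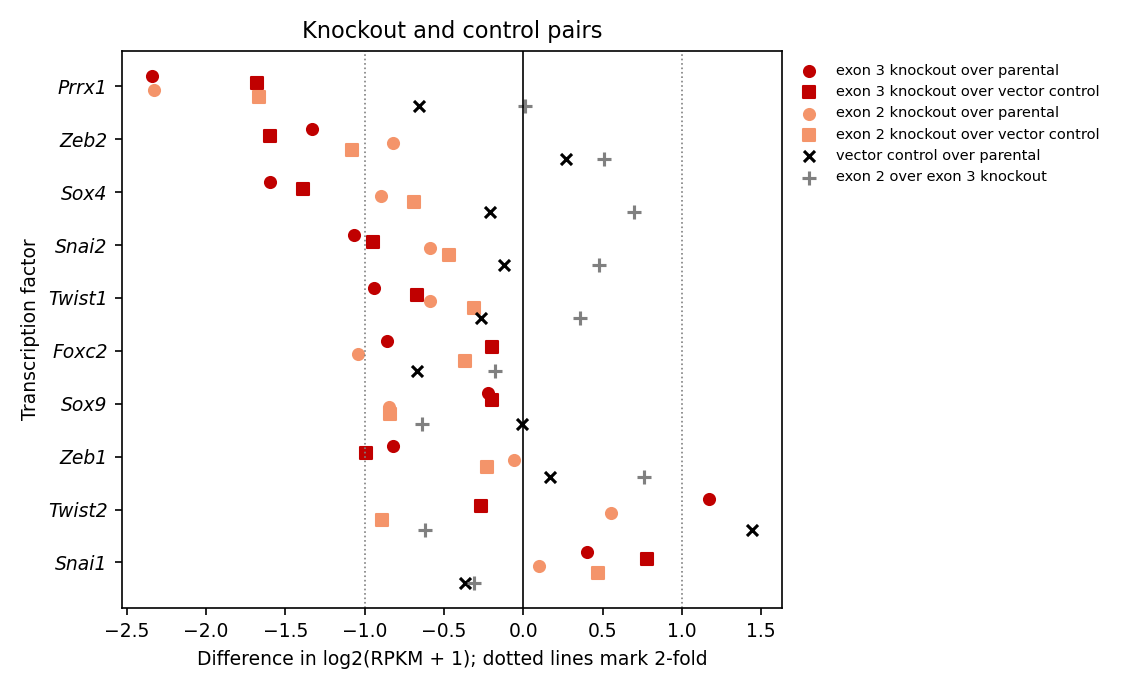
Differences in log2(RPKM + 1) for the 10 factors in the 4 knockout and control pairs (circles and squares) and within each group (crosses and plus signs), with dotted lines at 2-fold. All 4 pairs of Prrx1 lie beyond 2-fold below 0, while for Foxc2 the vector control against the parental line (-0.67) is further from 0 than some of its knockout pairs.

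Ratios within a library do not depend on its total. Zeb1 over Zeb2 was 1.83 in parental and 1.69 in vector control cells, against 2.98 in exon 3 and 3.37 in exon 2 knockout cells. Snai1 over Snai2 was 1.37 in parental and 1.14 in vector control cells, against 4.00 in exon 3 and 2.26 in exon 2 knockout cells. In both families the ratio was thus higher in both knockouts. Prrx1 over its relative Prrx2 was 1.05 in parental and 0.388 in vector control cells, against 0.138 in exon 3 and 0.354 in exon 2 knockout cells. This ratio was lower in both knockouts, although the vector control and the exon 2 knockout were close. Twist1 over Twist2 ran from 1.19 to 5.41, Sox9 over Sox4 from 1.06 to 2.88, and Foxc1 over Foxc2 from 1.81 to 3.07, and for these 3 ratios the groups overlapped. These ratios were not tested, and no share over pairs of other genes was computed. The GC content of the coding sequence was 64.65% for Snai1 and 49.63% for Snai2, and 49.73% for Zeb1 and 48.25% for Zeb2. The part of base composition in these ratios was not tested.

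**Figure D3:**
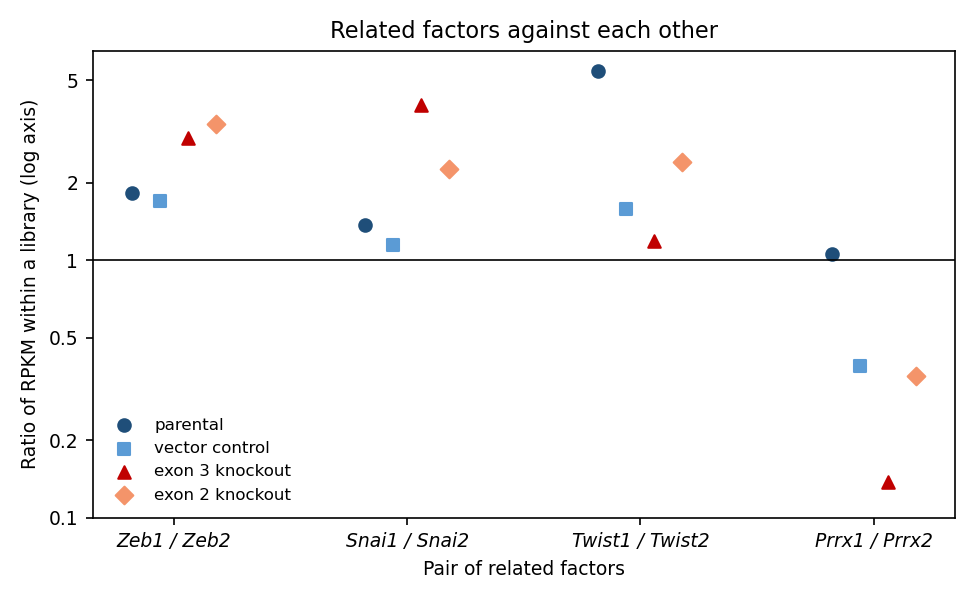
Ratio of RPKM between related factors within each library (log axis), with 1 point per library and a line at equal RPKM. Zeb1 over Zeb2 and Snai1 over Snai2 are higher in both knockouts than in both controls, Prrx1 over Prrx2 is lower, and Twist1 over Twist2 overlaps.

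The difference between the groups moved with the base composition of genes over the whole table. Tested genes in the quartile with the lowest GC content of the coding sequence had a median log2 difference of -0.57, and the following quartiles -0.14, 0.11 and 0.23. The share of genes lower in both knockouts than in both controls was 61.6% in the lowest quartile, then 33.1%, 18.5% and 12.1% in the highest. The factors were spread unevenly over these quartiles. Zeb2 was in the lowest quartile, Zeb1 and Snai2 in the next, and Prrx1 in the third. The other 6 (Snai1, Twist1, Twist2, Sox4, Sox9 and Foxc2) were in the highest, where 4 of them were lower in both knockouts. After each library was corrected for GC content and coding length, the log2 difference was -2.38 for Prrx1, -1.42 for Sox4, -0.89 for Twist1, -0.84 for Foxc2, -0.82 for Sox9, -0.76 for Zeb2 and -0.76 for Snai2. For these 7 the corrected groups did not overlap, as for 28.5% of genes in that direction. Among them the difference of Zeb2 shrank from -1.21, with its unadjusted limma p going from 0.00515 to 0.0346. The correction also left less of the differences of Zeb1 (-0.21) and Snai1 (0.04), and turned Twist2 to -0.35. In limma after the correction 0 of the 10 factors passed, with an adjusted p of 0.0565 for Prrx1 and of 0.180 for Sox4. The part of base composition in the differences of single factors was not tested further.

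**Figure D4:**
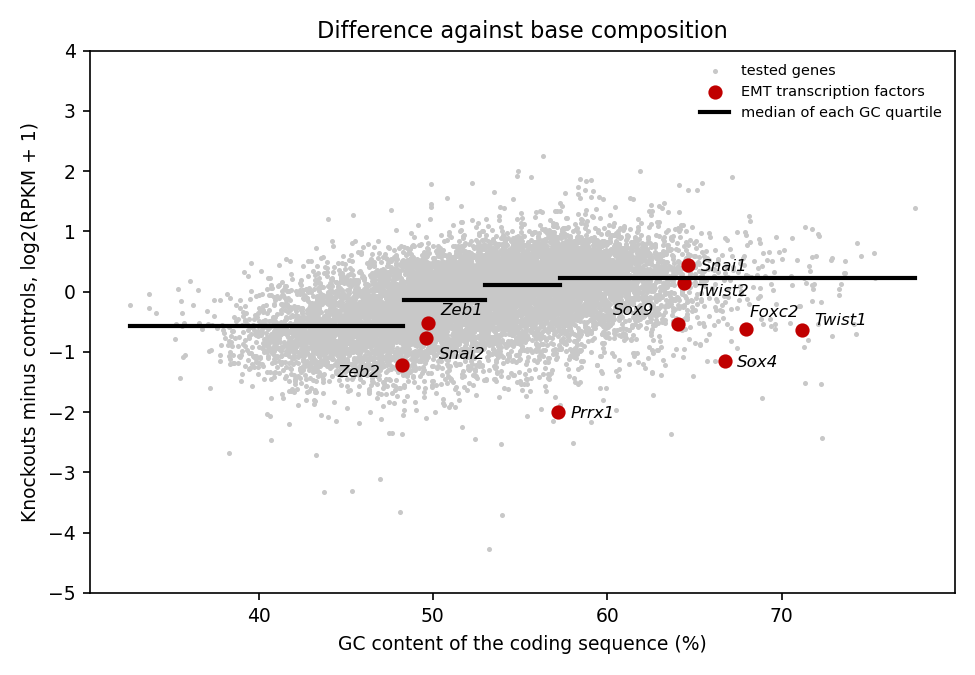
Difference in log2(RPKM + 1) between knockouts and controls against the GC content of the coding sequence for tested genes (grey), the 10 factors (red) and the median of each GC quartile (bars). The quartile medians run from -0.57 to 0.23, and Sox4, Twist1, Foxc2 and Sox9 lie below the bar of the highest quartile.

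Zeb and Snail factors recognise E-boxes, so the promoters of the factors were searched for CACCTG and for CANNTG, the general E-box that includes CACCTG, on both strands in the 250 bases before each start site. A promoter was found in the RefSeq table (GRCm38.p6) for 6 of the 10 factors, with 4 start sites for Zeb2. Zeb1, Snai2, Sox9 and Foxc2 had none in that table. CACCTG was found in 17.2% of 32851 promoters and CANNTG in 66.2%. Among the factors, CACCTG was found for Snai1 alone, beginning 126 bases before the start site, and Sox4 held another CANNTG form 211 bases before it. Prrx1, Zeb2, Twist1 and Twist2 had neither. The stretches for Snai1 and Sox4 are shown because they hold these letters, that of Prrx1 because this factor differed the most, and that of Epcam because it is an epithelial gene that Zeb and Snail factors are known to repress, with CACCTG at 187 and at 19 bases before its start. Capitals mark CANNTG, and each is written 5′ to 3′ on the strand of its gene. A match of letters is no evidence of binding.
Snai1, chr2:167538045-167538104, plus strand: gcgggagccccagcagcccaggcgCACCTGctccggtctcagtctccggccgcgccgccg
Sox4, chr13:28953820-28953939, minus strand: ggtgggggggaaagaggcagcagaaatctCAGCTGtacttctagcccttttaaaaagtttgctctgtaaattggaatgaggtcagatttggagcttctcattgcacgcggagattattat
Prrx1, chr1:163313731-163313850, minus strand: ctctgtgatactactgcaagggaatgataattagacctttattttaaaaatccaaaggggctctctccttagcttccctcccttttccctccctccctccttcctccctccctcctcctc
Epcam, chr17:87635779-87635978, plus strand: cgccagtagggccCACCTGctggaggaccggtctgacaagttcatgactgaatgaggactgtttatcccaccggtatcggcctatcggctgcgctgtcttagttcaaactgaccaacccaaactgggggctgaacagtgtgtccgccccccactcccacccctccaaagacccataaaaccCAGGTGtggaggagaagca

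Other EMT factors and the partners of the factors were counted from lists, all in the same limma test, where 0 genes of any list passed at adjusted p under 0.05. Each count of genes lower or higher in both knockouts is to be read against 31.2% lower and 21.9% higher over all tested genes. Each median is to be read against -0.08. The share lower moved with the GC content of genes, from 61.6% in the lowest quartile to 12.1% in the highest. The list counts and differences given here are without a GC correction, and the part of base composition in them was not tested. Of 12 tested other EMT factors and dimer partners, 5 were lower and 2 higher in both knockouts than in both controls (31.2% and 21.9% of all tested genes), with a median log2 difference of -0.37. The E proteins, with which Twist factors pair, did not all differ in the same direction. Tcf12 was at 65.0 RPKM in parental and 54.7 in vector control cells, against 29.7 in exon 3 and 38.3 in exon 2 knockout cells (log2 difference -0.80, SE 0.306, limma adjusted p = 0.203). Tcf4 had a log2 difference of -0.63 and Tcf3 of 0.43, with Tcf3 at 51.5 to 67.2 RPKM in the controls and 70.2 to 90.3 in the knockouts. Sox11, another Sox factor, had a log2 difference of 0.47 and Prrx2 of -0.56.

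Id proteins lack a DNA-binding region and hold E proteins away from Twist. Of 3 tested Id genes, 1 was lower and 1 higher in both knockouts, beside 31.2% and 21.9% of all tested genes. Id1 RPKM was 55.4 in parental and 45.6 in vector control cells, against 69.8 in exon 3 and 109.8 in exon 2 knockout cells. Id3 RPKM was 79.3 in parental and 205.8 in vector control cells, against 43.0 in exon 3 and 68.5 in exon 2 knockout cells. Id1 was thus higher (log2 difference 0.79, SE 0.324, limma adjusted p = 0.226) and Id3 lower (-1.22, SE 0.429, limma adjusted p = 0.180). Id2 (-1.13) rested on the vector control, at 17.1 RPKM against 2.64 to 3.37 in the other lines.

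Of 15 tested corepressor genes, 7 were lower and 3 higher in both knockouts, beside 31.2% and 21.9% of all tested genes, with a median log2 difference of -0.28 beside -0.08. The Polycomb subunits Suz12 and Ezh2, which place the repressive mark on histone H3 and are recruited by Snai1, had log2 differences of -1.45 (limma adjusted p = 0.105) and -1.02 (limma adjusted p = 0.201). Suz12 RPKM was 24.3 in parental and 32.5 in vector control cells, against 7.46 in exon 3 and 12.4 in exon 2 knockout cells. Rcor1, the CoREST scaffold that binds Kdm1a, was at 24.0, 20.1, 7.20 and 10.6 RPKM in the same order (log2 difference -1.23, limma adjusted p = 0.127). On the other side stood Ajuba, a LIM protein that bridges Snail to its partners, with 0.58, Ctbp1, the corepressor of Zeb factors, with 0.26, and Smarca4 with 0.20.

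Of 16 tested genes that act on the stability of these proteins, 9 were lower and 3 higher in both knockouts, beside 31.2% and 21.9% of all tested genes (median -0.27). Stub1, a ubiquitin ligase, was at 145.4 RPKM in parental and 128.4 in vector control cells, against 218.0 in exon 3 and 241.7 in exon 2 knockout cells (log2 difference 0.74, SE 0.290, limma adjusted p = 0.208). The kinase Atm had a log2 difference of -0.92, the ubiquitin ligase Mdm2 of -0.81 and the signalosome subunit Cops2 of -0.77. Btrc, which marks Snai1 for degradation, and Usp27x, which opposes it, both had a log2 difference of 0.27.

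Of 15 tested signals and effectors upstream of the factors, 8 were lower and 2 higher in both knockouts, beside 31.2% and 21.9% of all tested genes, with a median of -0.53. Hif1a, the oxygen-regulated factor that induces Twist1, was the 1 list gene at least 2-fold lower in all 4 pairs, as were 1.73% of all tested genes. Hif1a RPKM was 76.4 in parental and 125.1 in vector control cells, against 24.5 in exon 3 and 30.0 in exon 2 knockout cells (log2 difference -1.81, SE 0.332, limma adjusted p = 0.0909). Tgfb2, a ligand that induces EMT, was at 6.94 to 7.51 RPKM in the controls and at 3.53 or less in the knockouts (log2 difference -1.21, limma adjusted p = 0.148). The study itself lists Hif1a and Tgfb2 among genes of pathways affected in the knockout lines, so their differences here are no independent evidence. Egr1, which activates Snai1, had a log2 difference of -0.98. Tgfb1 (0.30), Smad3 (0.25) and Rela (0.23) had small positive differences.

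The genes these factors act on were counted last. Of 20 epithelial targets 5 reached the mean RPKM of 1 needed for the test (median 0.01). Of these, 1 was lower and 0 higher in both knockouts, beside 31.2% and 21.9% of all tested genes. Krt8 had a log2 difference of 0.58 and Krt18 of 0.19, with Krt18 at 60.2 RPKM in parental and 6.10 in vector control cells. Of 15 guardians of the epithelial state, factors that oppose Zeb and Snail, 4 were tested, and Klf4 was lower in both knockouts with a log2 difference of -0.37 (limma adjusted p = 0.527). Of 19 tested mesenchymal targets 4 were lower and 1 higher in both knockouts, both smaller shares than the 31.2% and 21.9% of all tested genes (median -0.21). Tgfbi, a matrix protein, had a log2 difference of -1.14 (limma adjusted p = 0.173). Col1a1, a fibrillar collagen chain, was at 670.3 RPKM in parental and 6.93 in vector control cells, against 54.3 in exon 3 and 24.2 in exon 2 knockout cells, so that the controls were further apart than the groups. Among the leukocyte markers only Cd68 was tested. Cd68 was at 4.92, 3.36, 11.5 and 13.2 RPKM in that order (log2 difference 1.39, limma adjusted p = 0.105). It was the 1 list gene at least 2-fold higher in all 4 pairs, as were 0.267% of all tested genes. The part of Cd68 in the values of the factors was not tested.

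For the 6 factors that spanned more than 1 on the log2 scale, the tested genes with the most similar centred values over the 4 libraries were sought by Euclidean distance. For Prrx1 these were Nfat5 (distance 0.305) and Edil3 (0.314), and 11 genes lay within 0.5. The other factors had many more genes that close, 132 for Twist2, 568 for Sox4, 625 for Foxc2, 800 for Zeb2 and 1569 for Snai2. The distance was not scaled to the span of a factor, which was 2.34 for Prrx1 and 1.07 for Snai2. The number of genes within 0.5 therefore also depends on that span and does not measure how rare a pattern is. Nfat5 RPKM was 23.2 in parental and 17.7 in vector control cells, against 3.46 in exon 3 and 4.48 in exon 2 knockout cells. The nearest genes were Snx13 and Tnrc6b for Zeb2, Usp6nl and Mdn1 for Snai2, Apol9a and Spryd4 for Twist2, Galnt18 and Rfx7 for Sox4, and Spred3 and Zcchc24 for Foxc2. With 4 libraries such likeness is a description only.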

How the data were processed

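The authors deposited RPKM values for 21090 genes, with 1 column per library and 0 columns left unmatched. The submitters' processing notes name CASAVA 1.8, GSNAP and GRCm38, without a role. The counter, gene model and length used are not given in the sources used here. Whole reads were recovered from ratios of RPKM between libraries. Of tested genes with a coding sequence, 56.02% matched an annotated coding length exactly (GENCODE M21). The library total and the multiple of reads were chosen to match such lengths, so this share is partly built in. Absolute reads rest on those lengths. Exact Poisson 95% intervals cover counting error only.

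The log scale was log2(RPKM + 1). Tested genes (10871) had a mean RPKM of 1 or more, and all 10 factors passed that filter. The test was limma 3.58.1 (R 4.3.3) with an intensity trend, 2 knockouts against 2 controls, no covariate, two-sided, with Benjamini-Hochberg adjusted p-values over all tested genes. Its code was run on simulated data with the same spread for every gene and added differences larger than those of the factors. That run does not measure how well the test detects differences of the size seen here. Tables and figures were made with scipy 1.17.1, pandas 2.3.3 and numpy 2.4.6 in Python 3.11.15. The 2 knockouts were made with different guides, and the controls are the parental line and a vector line. Nothing states that any line was derived more than once, and each gave 1 library. The p-values therefore measure the spread between these libraries only. Replicate numbers follow the order of deposition and pair nothing. No label gives a batch.

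The factors and the lists were chosen with earlier results of these data known. Named genes were all 10 factors, S100a4, and from each other list the genes at least 2-fold apart in all 4 pairs with up to 3 in each direction of largest difference. For each factor spanning more than 1 on the log2 scale, the 2 nearest genes were named too. Genes named outside this rule (Cdh1, Epcam, Vim and other markers, Foxc1, Stat3, and genes at the end that differ between the knockouts) were chosen after their values were seen or as defining markers. Of the list genes, 1 (Tbxt) was not matched and 2 were matched under another symbol.

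The alternatives tried were quantile normalization, scaling by the median ratio, a pseudocount of 0.1, a filter at 5 RPKM or none at all, limma with a robust prior, limma with no trend, a spline correction of each library for GC content and length, voom on the recovered reads, other folds, and leaving out each library.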

Additional observations from a re-analysis of the deposited data

Results flagged for a closer look

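In 6 genes of the lists, the exon 3 knockout and the exon 2 knockout lay on opposite sides of both controls. As log2 ratios of the exon 2 over the exon 3 knockout, the values were 1.60 for Cdh2, the N-cadherin gene, 2.95 for Tagln, a smooth muscle actin-binding gene, 0.89 for Smad7, an inhibitor of TGF-beta signals, 0.77 for Fbxl14, a ubiquitin ligase of Snail and Twist proteins, -0.98 for Elf3, an epithelial ETS factor, and -0.44 for Llgl2, a cell polarity gene. Tagln RPKM was 29.9 in parental and 114.8 in vector control cells, against 14.8 in exon 3 and 121.6 in exon 2 knockout cells. Cdh2 RPKM was 29.2, 26.7, 15.7 and 49.4 in the same order. Each knockout is 1 library, so these differences were not tested. Of 99 tested factors and list genes 6.06% behaved this way, beside 7.88% of all 10871 tested genes, and 0 of the 10 factors did.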

How the results depend on the processing

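In the test of all 4 libraries 0 factors and 0 list genes passed the threshold. When the filter was raised to a mean of 5 RPKM, 1 factor (Prrx1, limma adjusted p = 0.0266) and 1 list gene (Hif1a) passed, and with a robust prior 1 factor (Prrx1, 0.00197) and 4 list genes (Cd68, Hif1a, Rcor1 and Suz12) passed. Over the alternatives with all 4 libraries the adjusted p of Prrx1 ran from 0.00197 to 0.328. Leaving out 1 library gave 0 to 2 factors and 0 to 15 list genes past the threshold. Without the vector control 2 factors (Prrx1 and Sox4) and 6 list genes passed among 451 genes (4.15% of 10871), and without the parental line 1 factor (Prrx1) and 15 list genes among 788 (7.25%). Without the exon 3 or the exon 2 knockout 0 factors and 0 list genes passed, and 4 and 3 genes in all. The line that is then alone in its group is assumed to vary like the other group. When 1 library was left out, the median log2 difference of the factors ran from -0.85 (without the exon 2 knockout) to -0.59 (without the parental line), and was -0.80 without the vector control. With all 4 libraries it ran from -0.79 (GC correction) to -0.54 (median ratio scaling). At 1.5-fold in place of 2-fold, 3 factors (Zeb2, Prrx1 and Sox4) were apart in all 4 pairs, beside 1055 of 10871 tested genes, in place of 1 beside 217. At 2-fold, leaving out 1 library gave 1 to 3, with 2 without the parental line beside 8.58% and 3 without the exon 2 knockout beside 8.78%. Twist2 turned to -0.35 under the GC correction, and ran from -0.58 (without the parental line) to 0.86 (without the vector control) when 1 library was left out, with -0.17 without the exon 3 knockout. The other 9 factors kept their direction under every alternative run, but the size of some did not hold. Zeb1 (-0.52) was -0.14 without the exon 3 and -0.90 without the exon 2 knockout, Sox9 (-0.53) was -0.85 and -0.21, Foxc2 (-0.62) was -0.28 without the parental line and -0.95 without the vector control, and Snai1 (0.44) was 0.25 without the vector control and 0.04 under the GC correction. Over all genes and with all 4 libraries, 2 were called with the settings of the report or with no trend, 1 with a pseudocount of 0.1 or quantile normalization, 0 with the median ratio, no filter, the GC correction or voom, 32 with the filter at 5 and 285 with the robust prior. Quantile normalization moved the median of all genes from -0.08 to 0.04, and that of the factors from -0.62 to -0.59. The causes of these shifts were not tested beyond what the number of genes or libraries sets. No paired analysis was made, because nothing in the labels or the design pairs a knockout line with a control line.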

Other observations

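Stat3, an effector of cytokine signals upstream of several of these factors, was listed at 0.0138 RPKM in parental and 0 in vector control cells, against 0.0368 in exon 3 and 0 in exon 2 knockout cells, which are 0 to 2 reads per library. Most cell types express Stat3, and whether these values reflect its transcript or the way its reads were counted was not tested, so they are not read as absence. Stat3 was below the filter and entered no comparison. Fbn1, the gene for the matrix protein fibrillin, was at 5.49 RPKM in parental and 1.61 in vector control cells, against 3.35 in exon 3 and 0.387 in exon 2 knockout cells, so that each group held a higher and a lower line. Acta2, smooth muscle actin, was at 55.2, 420.1, 178.5 and 252.5 RPKM in the same order, with both controls outside the range of the knockouts.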
